A study of Mus musculus with 8 samples.

Results

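Box C/D small nucleolar RNAs (snoRNAs) were read in aortic endothelial RNA by 47 probe sets of an Affymetrix Mouse Transcriptome Array 1.0, out of 72688 probe sets on the array. They are the probe sets to which the platform annotation gives a single gene symbol beginning with Snord, and they stand for 44 symbols. Another 25 probe sets carry a Snord symbol together with other symbols, and were left out because their reading cannot be given to the snoRNA alone. RNA came from the thoracic aorta of 8 female Cdh5-CreERT2+; Mef2c f/f mice, in which the Cre recombinase is active in endothelium and both groups carry the recombinase and the floxed alleles. At 10 weeks of age 4 mice (EKO) received 5 daily injections of tamoxifen, given to remove Mef2c from endothelium. The 4 littermates (control) received the vehicle, sunflower seed oil with 10% ethanol. The thoracic aorta was collected at day 14, counted from the first injection, and TRIzol flushed through the lumen of a single aorta gave the RNA of each array. Tamoxifen went to the EKO mice alone, so drug and deletion cannot be told apart.

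Box C/D snoRNAs are short RNAs of the nucleolus, each held by the proteins fibrillarin, NOP56, NOP58 and SNU13. Most of them pair with ribosomal RNA and direct ribose methylation at a chosen base, and a few act in cutting the ribosomal precursor. In mammals nearly all are cut out of introns of a host gene, often one for a ribosomal or nucleolar protein, and have neither cap nor poly(A) tail. In the RefSeq gene table of assembly GRCm38.p6, all 47 probe sets had a gene of the same symbol, with lengths from 28 to 221 nucleotides and a median of 68. Of the 44 snoRNA genes, 36 lay inside the bounds of 1 longer gene, 5 inside 2, and 3 (Snord13, Snord89 and Snord118) inside none. Strand was not checked, and the files name no genome build, so no coordinates are given.

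Endothelial markers read high on all arrays, and markers of other cell types were present. The 12 endothelial markers averaged 12.9 to 13.1 (log2) per array, and 8 of them lay above the 95th percentile of the array's negative control probe sets on all 8 arrays; Kdr, Robo4, Erg and Emcn did not on any. Neuronal markers averaged 5.88 to 6.16. The 9 adipocyte markers measured averaged 8.63 to 10.7 on control and 8.12 to 10.1 on EKO arrays, and all 9 had lower means in EKO. Ucp1 read 14.8 ± 2.2 in control and 13.9 ± 2.1 in EKO arrays (SD), above the 95th percentile on 7 arrays. Cox8b and Fabp4 lay above it on 4 arrays each, Cidea on 1 and the other 5 on none. The 2 erythroid markers measured, Alas2 and Slc4a1, averaged 10.5 to 12.2 and 10.4 to 10.8, and both were lower in EKO at a limma unadjusted p of 0.0195 and 0.0159. Alas2 lay above the 95th percentile on all 8 arrays and Slc4a1 on none. The 7 fibroblast markers averaged 9.27 to 10.01 and 8.999 to 9.65, with 6 lower in EKO, Pi16 at a limma unadjusted p of 0.0219, and Mfap5 above the 95th percentile on all arrays. Smooth muscle markers averaged 7.70 to 8.12 and 7.89 to 8.42, and leukocyte markers 6.79 to 8.56 and 7.69 to 8.62. No marker named here passed the adjusted threshold. The adipocyte marker mean entered 1 fit as a covariate, in which 6 snoRNA probe sets had an unadjusted limma p under 0.05 (8.41% of all tested) where 8 had one without it. The part of the other cell types in the snoRNA readings was not tested. In such bulk RNA, fewer cells of a type and less RNA per cell cannot be told apart. Mef2c read 9.77 ± 0.11 in control and 9.75 ± 0.20 in EKO arrays (SD, n = 4 each). The difference was -0.03 (limma adjusted p = 0.946), so no loss of Mef2c RNA was seen. Its single probe set is summarised over a transcript cluster. Where the probes lie against the floxed part was not checked, so this reading cannot check the deletion.

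Only 4 of the 47 snoRNA probe sets stood clear of the negative controls on every array. The control probe sets whose identifiers carry the word neg number 5222. The sources used here do not say what they target, and they spread widely, with medians of 7.34 to 7.45 and 95th percentiles of 11.5 to 11.8 on the 8 arrays. Above the 95th percentile on all 8 arrays lay Snord42a, Snord89 and both probe sets of Snord13. Another 3, Snord70, Snord14e and Snord71, crossed it on 1, 2 and 2 arrays, and 40 crossed it on none. Above the median of the negative controls lay 23 on all arrays, 5 on some and 19 on none. The share above the 95th percentile on all arrays was 8.51%, beside 5.43% of all 30604 probe sets with 1 symbol and 34.6% of the 1324 positive control probe sets. Levels of different probe sets depend on their probes as well as on the RNA, so their order is an order of readings, not of amounts.

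**Figure D1:**
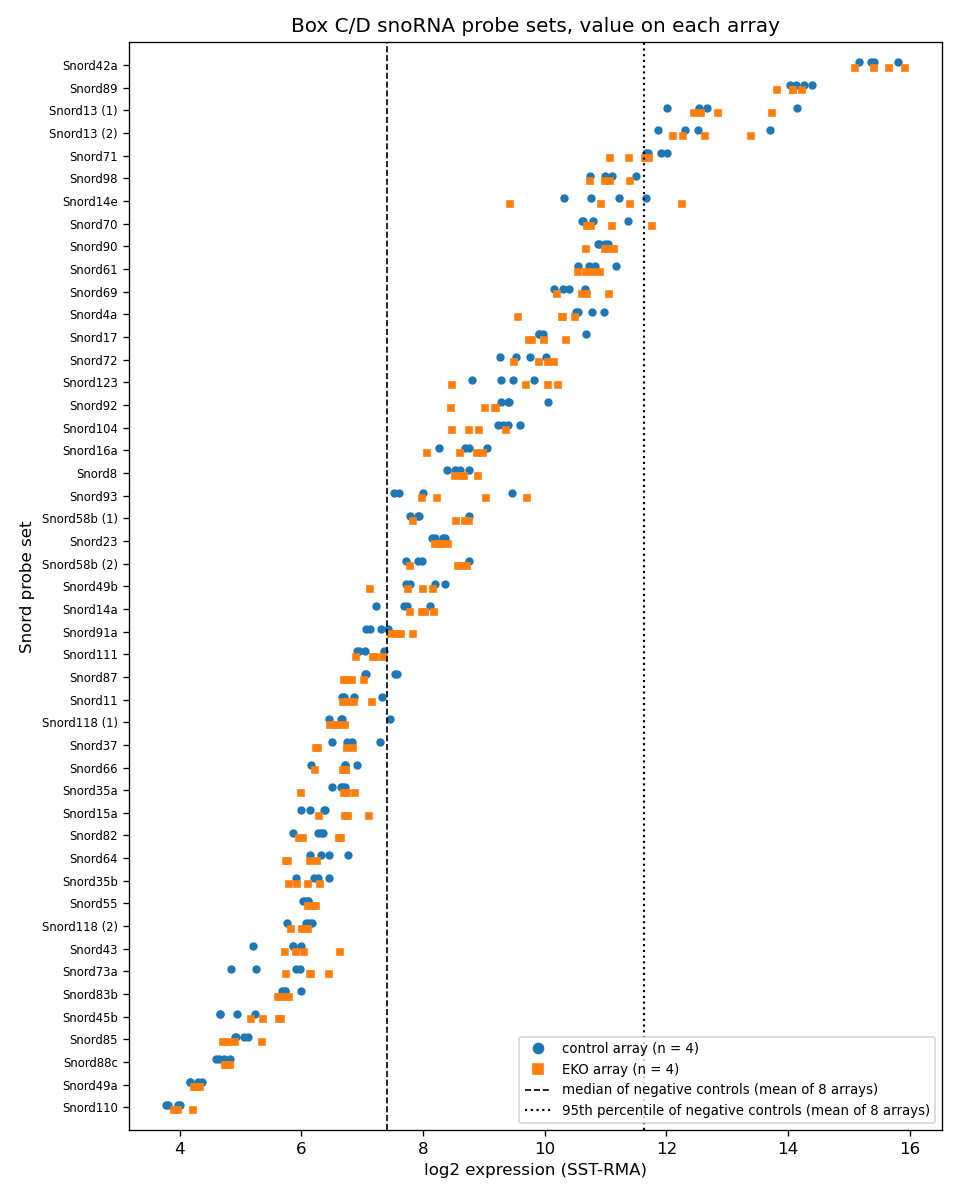
Log2 expression of each of the 47 Snord probe sets (rows, ordered by mean) on the 4 control arrays (blue circles) and 4 EKO arrays (orange squares); a number in brackets tells apart probe sets of one symbol. The dashed and dotted lines mark the median and the 95th percentile of the negative control probe sets, averaged over arrays. Snord42a, Snord89 and the Snord13 probe sets lie right of the dotted line on all 8 arrays.

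None of the U13 and U14 snoRNAs, which act on small-subunit ribosomal RNA, passed the adjusted threshold, and their readings overlapped between groups. Snord13, or U13, which acts in maturation of small-subunit ribosomal RNA, read 12.01, 14.14, 12.54 and 12.67 on control arrays 1 to 4 and 12.45, 12.85, 13.73 and 12.57 on EKO arrays by its higher probe set. Control array 2 and EKO array 3 were the highest, and the groups overlapped throughout. The difference was 0.06 (95% confidence interval -0.98 to 1.10, limma adjusted p = 0.969), and the interval spans a change of about 1 log2 unit either way. The other Snord13 probe set followed it array by array, with a gap of 0.14 to 0.46, and differed between groups by 0.00 (0.00215). Snord14e, one of the U14 RNAs, which act on the same subunit, read 10.31, 10.76, 11.21 and 11.66 in control and 11.40, 9.43, 12.26 and 10.92 in EKO arrays. It had the widest range of all members, 2.83, with its lowest and its highest reading both in EKO arrays, and a difference of 0.01 (limma adjusted p = 0.995). Snord14a, another U14 copy, read 7.23 to 8.11 in control and 7.78 to 8.18 in EKO arrays, a difference of 0.30 (limma adjusted p = 0.622).

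Snord118, or U8, which is needed for maturation of the large-subunit RNAs, was not told apart from the negative controls. Its 2 probe sets averaged 6.69 and 6.02, below the median of the negative controls on all arrays except control array 2, where the first read 7.46. They did not follow each other: the gap between them ran from 0.31 to 1.29 over the arrays. Their identifiers name different chromosomes, and which of the 2 probe sets reads the U8 gene was not checked. The first probe set differed by -0.22 (limma adjusted p = 0.721), and the second lay below the level filter of 6.14, the median of all probe sets, and was not tested.

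Most members with the highest readings had similar means in both groups. Snord42a, which lies in the ribosomal protein gene Rpl23a, read 15.17, 15.36, 15.42 and 15.81 in control and 15.41, 15.09, 15.66 and 15.92 in EKO arrays, a difference of 0.08 (95% confidence interval -0.36 to 0.53). EKO array 2 was the lowest and EKO array 4 the highest of all. Snord89 read 14.03 to 14.40 in control and 13.82 to 14.24 in EKO arrays and differed by -0.15 (-0.41 to 0.11). Snord90, inside Rc3h2, was among the steadiest, with all 8 arrays between 10.69 and 11.14 and a difference of 0.01 (-0.22 to 0.25). Of the others among the 10 highest, Snord71 differed by -0.37 (limma unadjusted p = 0.0386, adjusted p = 0.549), Snord70 by 0.23, Snord61 by -0.09 and Snord98 by -0.03. None passed the adjusted threshold.

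No snoRNA passed the threshold in the comparison of EKO with control aortas, which asks what changes after tamoxifen given to delete endothelial Mef2c. The limma fit held the 16511 probe sets with 1 symbol and a mean above the filter, among them 36 of the 47 members. After Benjamini-Hochberg adjustment 0 of the 36 passed 0.05, as did 0 of all tested (0.0%), with a smallest adjusted p of 0.499 among members and 0.471 overall. At an unadjusted p under 0.05 limma gave 8 members, 22.2%, where 8.96% of all tested probe sets reached it. Of the 8, 6 were lower in EKO aortas (3.53% of all tested were) and 2 higher (5.43%). The groups did not overlap for 4 members, 1 higher and 3 lower, beside 6.12% of all tested (3.44% higher, 2.68% lower). Members vary more between arrays than most probe sets, and no test of the family as a whole was made. With single arrays left out the count of 8 ran from 5, without control array 3 (6.71% of all tested) or EKO array 3 (7.34%), to 11, without EKO array 1 (12.4%). Both probe sets of Snord58b are among the 11. The count was 5 of 26 members, 19.2%, when only probe sets above the median of the negative controls were tested (9.13%). It was 4 of 36, 11.1%, once the array median entered the fit (5.77%). An unmoderated test that also let the variances of the groups differ gave 2 of 36, 5.56%, a smaller share than the 7.55% of all tested. With each array centred on its median, 1 higher and 6 lower members had such a p (9.83%). The groups did not overlap for 2 members after centring (6.15% of all tested) or quantile normalization (5.38%), and for 7 without EKO array 2 (7.62%).

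**Figure D2:**
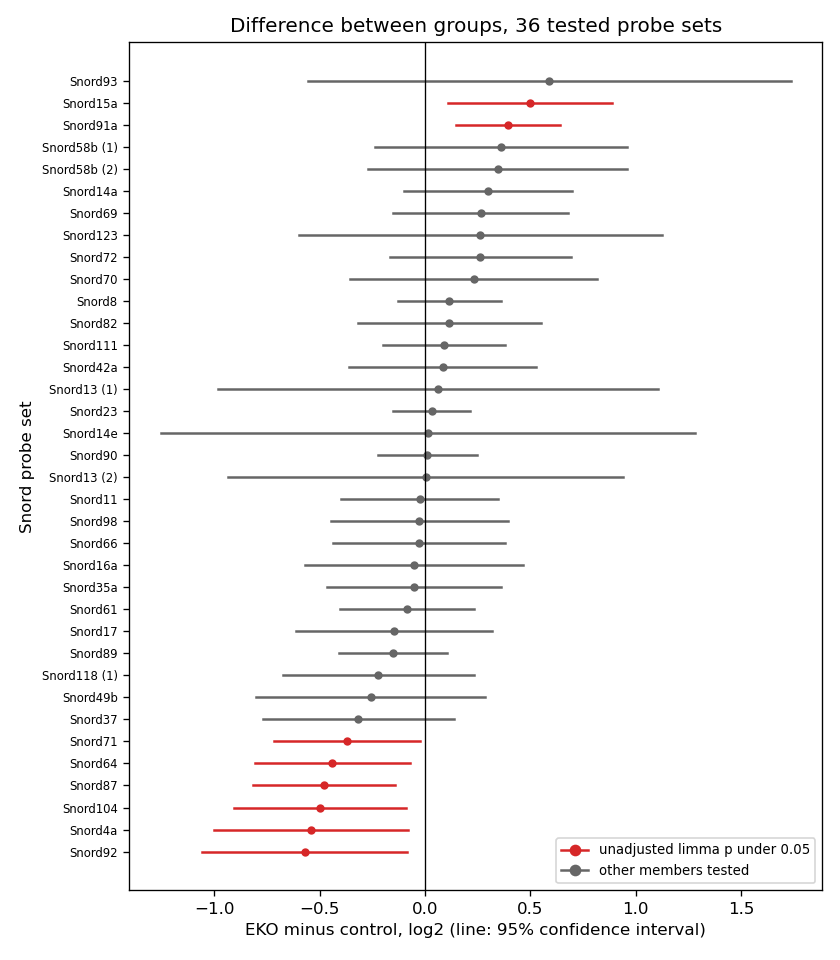
Difference between EKO and control arrays (x axis, log2) for each of the 36 tested Snord probe sets (y axis), with its 95% confidence interval from limma; red marks an unadjusted p under 0.05. The points run from -0.57 (Snord92) to 0.59 (Snord93), 19 above and 17 below 0, and none passed after adjustment.

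Differences in the 2 directions nearly balanced. Among the 36 tested, 19 were higher and 17 lower in EKO aortas, with a median of 0.01 beside -0.02 over all tested probe sets. Over all 47 members the median was 0.01, with 26 higher and 21 lower. Per array, the median reading over the 47 members was 7.72, 7.94, 7.71 and 7.74 in control and 7.78, 8.18, 8.07 and 8.003 in EKO arrays, and control array 2 lay among the EKO arrays. The median size of the difference, without its sign, was 0.227 for tested members and 0.103 for all tested probe sets. The 11 members below the filter ranged in mean from 3.95 (Snord110) to 6.12, and 2 of them were among the 3 members with the largest positive differences: Snord73a (0.63), Snord93 (0.59) and Snord45b (0.58). Tested without a filter, Snord73a and Snord45b had adjusted p of 0.549 and 0.530, with 10 of the 47 members then at an unadjusted p under 0.05 (9.02% of all). Snord45b and Snord73a lay below the median of the negative controls on every array. These 3 were named after their values were seen.

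The 2 members higher in EKO aortas by unadjusted p had low readings: Snord91a lay above the median of the negative controls on 5 of 8 arrays and Snord15a on 0. Snord91a, which lies within the bounds of Tsr1 and Srr, read 7.06, 7.31, 7.13 and 7.42 in control and 7.56, 7.64, 7.83 and 7.47 in EKO arrays. Every EKO array lay above every control array, but control array 4 and EKO array 4 were nearly level. The means were 7.23 ± 0.17 and 7.63 ± 0.15 (SD, n = 4 each), a difference of 0.39 or 1.31-fold (SE 0.11, limma adjusted p = 0.499), which did not pass. Snord15a, inside the ribosomal protein gene Rps3, read 6.38, 6.14, 5.999 and 6.37 against 7.11, 6.29, 6.71 and 6.77. EKO array 2 lay within the control range, and the difference was 0.50 (SE 0.17, limma adjusted p = 0.525).

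Of the 6 members lower by unadjusted p, 4 read above the median of the negative controls on every array. Snord92, inside Wdr43, a gene for a ribosome assembly protein, read 9.27, 10.06, 9.40 and 9.42 in control and 9.02, 9.19, 9.19 and 8.46 in EKO arrays. The groups did not overlap, control array 2 being the highest and EKO array 4 the lowest, and the difference was -0.57 (SE 0.21, limma adjusted p = 0.537). Snord4a read 10.78, 10.97, 10.52 and 10.54 against 10.50, 9.56, 10.30 and 10.28. The groups did not overlap, though control array 3 and EKO array 1 nearly met. The difference was -0.54 (SE 0.20, limma adjusted p = 0.537), and -0.34 without EKO array 2, the lowest. Snord104, inside the noncoding gene Gm36220, read 9.31, 9.40, 9.59 and 9.23 against 8.92, 8.47, 8.76 and 9.37, so that EKO array 4 lay among the controls (difference -0.50, SE 0.18). Snord71, within the bounds of Ap1g1 and Gm17344, read 11.67, 11.70, 12.02 and 11.92 against 11.65, 11.72, 11.38 and 11.07, and EKO array 2 lay within the control range (difference -0.37, SE 0.15).

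The other 2 read mostly below the median of the negative controls, Snord87 on 6 of 8 arrays. Snord87, within the bounds of Mcmdc2 and of the noncoding host gene Snhg6, read 7.57, 7.06, 7.05 and 7.54 in control and 7.03, 6.83, 6.71 and 6.73 in EKO arrays. The groups did not overlap, and the difference was -0.48 (SE 0.15, limma adjusted p = 0.509). Snord64, below that median on all 8 arrays, comes from the imprinted locus of Snhg14, whose snoRNAs are known from neurons. It read 6.77, 6.15, 6.46 and 6.33 against 6.14, 6.26, 5.78 and 5.75, with a difference of -0.44 (SE 0.16, limma adjusted p = 0.536). EKO array 2 lay within the control range. Snord64 was the single member from the imprinted loci, so those clusters cannot be described further.

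**Figure D3:**
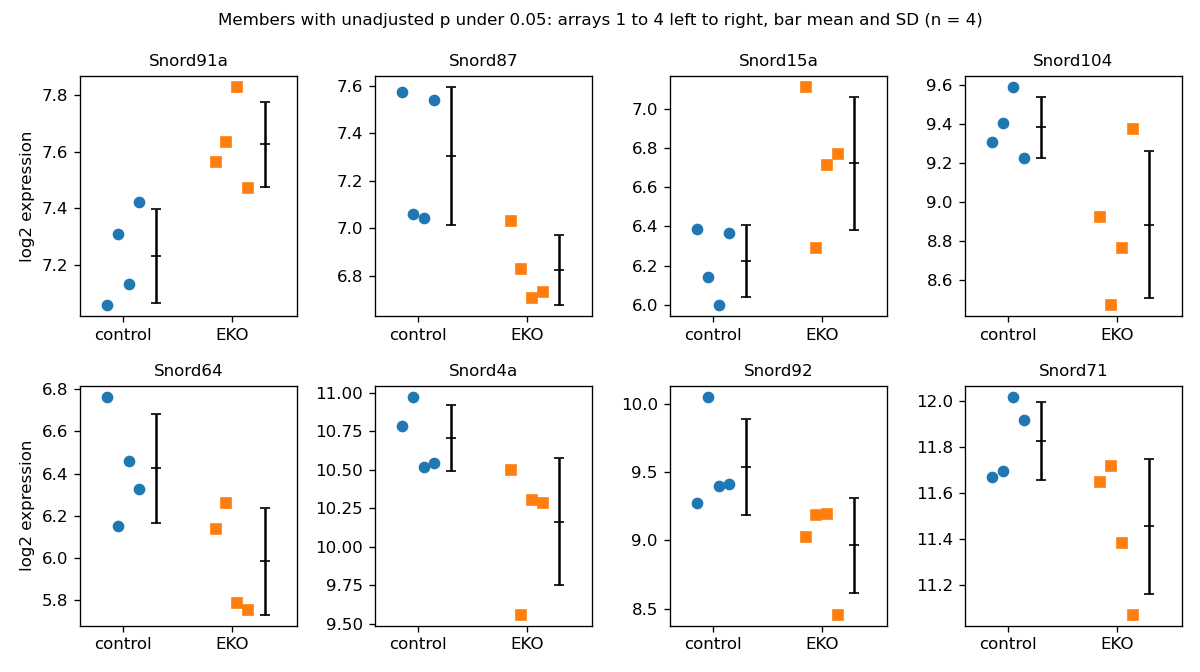
Log2 expression of the 8 members with an unadjusted limma p under 0.05 on control arrays (blue circles) and EKO arrays (orange squares), replicates 1 to 4 from left to right, with mean and SD (n = 4) beside them; each panel has its own axis. Only Snord91a, Snord87, Snord4a and Snord92 show no overlap between groups.

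Of these 8, Snord91a and Snord87 kept an unadjusted p under 0.05 in all 8 fits that left out 1 array, and they were the 2 members given by the unmoderated test that let the variances of the groups differ. Snord91a kept it under all 12 other settings as well, and Snord87 under 10 of 11. With single arrays left out the difference of Snord91a ranged from 0.33 to 0.46 and that of Snord87 from -0.57 to -0.39. Snord64 and Snord71 kept it in 4 of 8 such fits, Snord104 in 5, Snord4a and Snord92 in 6 and Snord15a in 7. No member passed after adjustment in any of these fits.

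The next members by p in the positive direction were Snord69 inside Gnl3, Snord72 inside Rpl37 and Snord58b inside Rpl17. Snord69 read 10.16 to 10.66 in control and 10.20 to 11.06 in EKO arrays, and Snord72 9.27 to 10.02 and 9.50 to 10.15, each a difference of 0.26. Snord58b has 2 probe sets that never differed by more than 0.07 on an array, and that therefore count as 1 measurement. The first read 7.79, 7.94, 7.91 and 8.76 in control and 7.84, 8.70, 8.55 and 8.76 in EKO arrays. High readings near 8.7 and low ones near 7.9 thus occurred in both groups, and the difference was 0.36 (SE 0.26, limma adjusted p = 0.672).

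The Gas5 and Snhg1 loci, which hold many box C/D snoRNAs, gave no single-symbol probe set. Of the 4 snoRNAs in Rpl13a, a locus studied for its role in lipid stress, Snord35a alone had one. It read 6.67, 6.496, 6.72 and 6.64 in control and 6.88, 6.75, 5.99 and 6.70 in EKO arrays, EKO array 3 being the lowest. All lay below the median of the negative controls, with a difference of -0.05 (limma adjusted p = 0.933).

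Hosts were assigned by symbol from the RefSeq gene, and the position of each probe set was not checked. By that assignment 14 members fell inside ribosomal protein genes, 7 inside genes for nucleolar or ribosome assembly proteins and 9 inside other coding genes. Another 2 fell inside genes for translation factors, 5 inside noncoding genes and 5 within the bounds of several genes, and 5 had no enclosing gene. The Snord58b probe sets, whose identifiers name different chromosomes, were both counted under Rpl17. The identifier of the Snord14e probe set marks it as unmapped. Over tested members the median difference was 0.26 for those in ribosomal protein genes (9 tested, 1 higher and 1 lower by unadjusted limma p), 0.07 for the nucleolar group (6 tested, 0 and 1) and -0.35 for those in noncoding genes (4 tested, 0 and 2). It was 0.12 for those within several genes (5 tested, 1 and 2), -0.01 in other coding genes (6 tested), -0.17 in translation factor genes (2 tested) and -0.07 with no enclosing gene (4 tested), the last 3 with 0 at that p. The first of these medians counts both probe sets of Snord58b, taken above as 1 measurement. The last counts both probe sets of Snord13, which followed each other. The host groups are small, 8.96% of all tested probe sets reached that p, and differences between the host groups were not tested.

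In 4 host genes 2 members could be set side by side. Rpl23a holds Snord42a (0.08) and Snord4a (-0.54), Nop58 holds Snord70 (0.23) and Snord11 (-0.03), Rpl3 holds Snord43 (0.35) and Snord83b (-0.07), and the noncoding gene 2410006H16Rik holds Snord49a (0.02) and Snord49b (-0.26). These are differences between EKO and control on the log2 scale. Snord43, Snord83b and Snord49a lay below the level filter and were not tested in the main fit, and none of the others passed. The difference within each pair was not tested. The readings of Snord42a and Snord4a on one array lay 4.38 to 5.64 apart, and those of Snord43 and Snord83b, both below the median of the negative controls, 0.06 to 0.87.

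Readings of host genes ranged less over the arrays than those of the snoRNAs inside them. A single-symbol probe set was at hand for 24 enclosing genes, which gave 25 pairs of snoRNA and gene, some sharing a member or a gene. The snoRNA had the wider range over the 8 arrays in 23 of the 25, with a median range of 0.865 log2 units beside 0.322 for the genes. Hspa8, the constitutive heat shock cognate, ranged over 0.428 and its Snord14e over 2.83. Wdr43 differed by 0.05 between groups and its Snord92 by -0.57, and Snhg6 by 0.07 and its Snord87 by -0.48. In 10 of 25 pairs the snoRNA and the enclosing gene differed in the same direction. The exceptions in range were Snord23 in Nop53 and Snord111 in Sf3b3. Of these genes Sf3b3, a splicing factor subunit, had the smallest p, with a difference of -0.22 (limma unadjusted p = 0.0451, adjusted p = 0.550). None of these genes passed after adjustment.

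**Figure D4:**
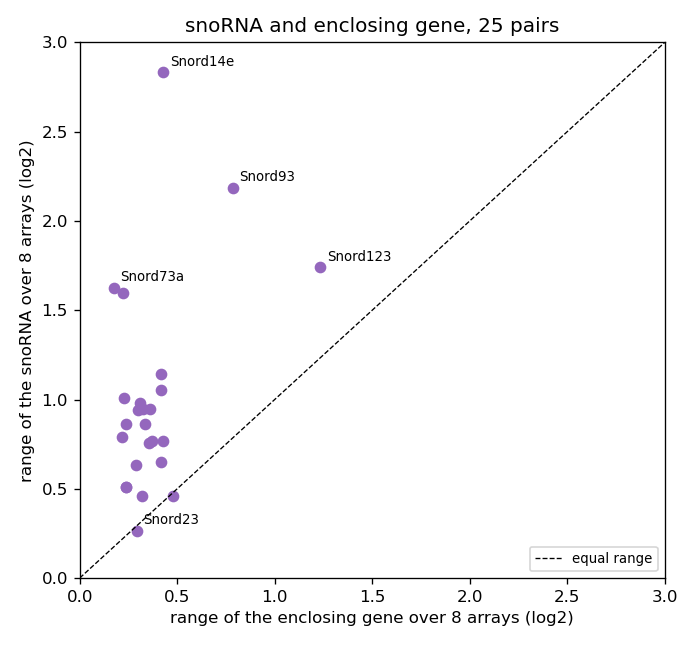
Range over the 8 arrays (highest minus lowest, log2) of each snoRNA probe set (y axis) and of its enclosing gene (x axis), 25 pairs; the dashed line marks equal ranges. In 23 pairs the point lies above the line, with Snord14e farthest from it at 2.83 against 0.428.

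The spread between arrays of one group was wider for the family than for all tested probe sets at every level. The median SD within groups was 0.300 log2 units for the 36 tested members, beside 0.154 for all tested probe sets, 0.249 for 15 H/ACA snoRNAs (Snora), 0.226 for 5 Cajal body RNAs (Scarna) and 0.253 for 356 microRNA probe sets (Mir). Of the 36 members, 34 lay above the median SD of all tested probe sets and 28 above their upper quartile, 0.234. Among probe sets with a mean above 10, the median SD was 0.315 for 13 members and 0.146 for 4461 probe sets. From 8 to 10 it was 0.361 and 0.147, and between the filter and 8 it was 0.280 and 0.164. Mir probe sets had 0.266 between the filter and 8, 0.237 from 8 to 10 and 0.241 above 10. For Snora it was 0.249 between the filter and 8 and 0.202 from 8 to 10. Without the filter the median SD was 0.288 for members, 0.510 for negative and 0.317 for positive control probe sets. Snord23, inside Nop53, had the least spread among those tested, reading 8.15 to 8.42 over all arrays. The widest were Snord14e (0.934) and Snord93 (0.843).

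**Figure D5:**
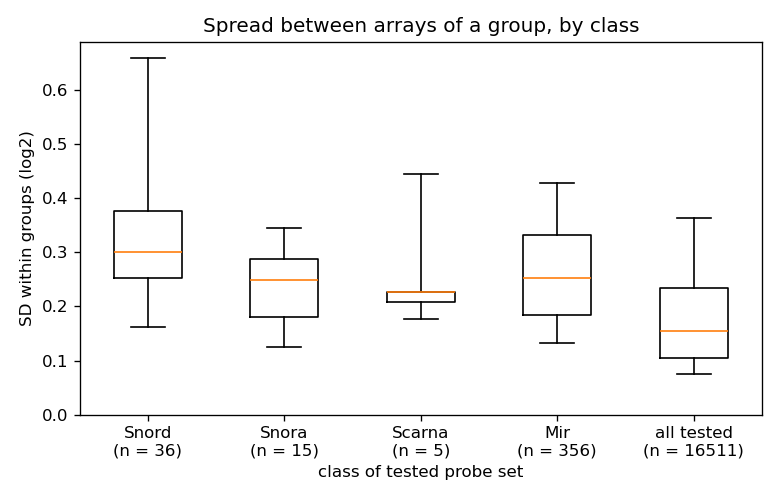
SD between arrays of a group (pooled over both groups, log2) for tested probe sets of the Snord, Snora, Scarna and Mir classes and for all tested probe sets; the line is the median, the box spans the quartiles and the whiskers reach the outer deciles. The Snord median is 0.300 and that of all tested probe sets 0.154.

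Other small RNA classes also lay mostly below the 95th percentile of the negative controls. Of 19 Snora and 6 Scarna probe sets 0 lay above the 95th percentile on any array, and of 647 Mir probe sets 46 (7.11%) did so on all. At an unadjusted p under 0.05 limma gave 2 of 15 tested Snora, 0 of 5 Scarna and 57 of 356 Mir probe sets, beside 8.96% of all. None passed after adjustment.

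The proteins that hold and assemble box C/D snoRNAs differed little between groups. Of the core proteins Fbl, the methylating enzyme fibrillarin, read 10.94 ± 0.09 in control and 10.92 ± 0.12 in EKO arrays (SD, n = 4 each), a difference of -0.01. Nop58 differed by 0.00 (-0.00085) and Rrp9, the U3-specific protein, by 0.07, while Nop56 and Snu13 had no single-symbol probe set. Of 11 factors listed for snoRNA assembly or wider ribosome biogenesis 4 were higher and 7 lower, with a median of -0.03. Those with the smallest p were the AAA ATPase Ruvbl2 (-0.14), Pih1d1 (-0.17) and, of the wider group, Tcof1 (-0.06) and Rsl24d1 (-0.06). Of 6 proteins of the H/ACA class 2 were higher and 4 lower (median -0.05), with Nop10 at -0.19, Naf1 at 0.08, Nhp2 at -0.10 and Gar1 at 0.07. Among noncoding host genes 8 of 22 were measured, with a median of 0.06, and Snhg15 (0.10), Snhg6 (0.07), Snhg14 (0.05) and Snhg18 (-0.18) had the smallest p. Among coding host genes 18 of 30 were measured, 5 higher and 13 lower (median -0.04), with Eif4g2 (-0.14), Eef2 (-0.17), Rpl4 (-0.11) and Tnpo2 (-0.12) first by p. In these lists 0 genes passed in limma after adjustment, and 0 had an unadjusted p under 0.05. The lists do not hold every enclosing gene of a member, and Sf3b3, described above, is not in them.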

How the data were processed

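RNA was measured on 8 arrays (4 control, 4 EKO) from 5 ng of total RNA each. The authors deposited log2 expression values per transcript cluster, summarised by SST-RMA, and the labels name the Expression Console software; its version and a genome build are not given in the sources used here. Of the 72688 probe sets, 6732 were controls, 30604 had 1 gene symbol, 2146 several, and 33206 were not listed. Symbols were updated through RefSeq identifiers (1135 changed, none of a member). Probe sets with 1 symbol and a mean over 8 arrays above 6.14 were tested with limma 3.58.1 in R 4.3.3 (lmFit, eBayes, no covariate, Benjamini-Hochberg over 16511). Probe sets of one symbol were not merged, since members are probe sets. In gene lists the probe set with the highest mean stood for a symbol. Nothing in the labels goes beyond 1 aorta per array, and p-values measure the spread between these arrays. Detection was set against the 95th percentile of the negative control probe sets. The fit was tested on simulated data. The number of arrays limits the precision.

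Members and lists were chosen with earlier results of these data known. Named members are the 10 with the highest mean, the 6 with the smallest p in each direction, those of the Gas5, Snhg1, Rpl13a and imprinted loci, Snord118 and Snord13; of each list the 4 genes with the smallest p and hosts of named members. Any other named is an example chosen after its values were seen. Alternatives covered the filter, scaling, merging of probe sets, covariates, variance model, array weights, Welch's test, the replicate block, the background threshold and each array left out; the covariate for adipocyte markers and the threshold of antigenomic background probe sets were added after seeing the data.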

Additional observations from a re-analysis of the deposited data

Results flagged for a closer look

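The Snord58b reading of control array 4 stood apart from the other controls. It was 8.76 by the first probe set, where the other 3 control arrays read 7.79 to 7.94, and the gap took 0.852 of the group's range above Dixon's 95% critical value. The EKO arrays read 7.84 to 8.76, and control array 4 was level with the highest of them. Of 48 groups of 4 arrays checked this was the single one, where chance gives about 1 in 20. The other Snord58b probe set was not among the groups checked. It read 7.72, 7.99, 7.92 and 8.75 on control arrays 1 to 4.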

How the results depend on the processing

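No probe set passed the adjusted threshold in any of the 12 other settings or with any array left out, the smallest adjusted p being 0.161 (without EKO array 1). The number of members at an unadjusted p under 0.05 was 8 (8.96% of all tested), and 5 to 11 with single arrays left out (6.01% to 12.4% of all tested). The 11 include both probe sets of Snord58b. The number was 5 with the filter at the median of the negative controls (9.13%), 4 with the array median as a covariate (5.77%) and 2 with Welch's test (7.55%). As shares of the members tested these were 19.2%, 11.1% and 5.56%. Members whose groups did not overlap numbered 4 (6.12%), then 2 with quantile normalization (5.38%), 2 with centring on the array median (6.15%) and 4 to 7 with single arrays left out (7.62% to 13.8%). The number above background on all arrays was 4, 23 against the median of the negative controls, 0 against their 99th percentile and 25 against the highest antigenomic background probe set. The median difference over members was 0.01, and -0.01 to 0.06 with single arrays left out. It was also recomputed under the filter at the median of the negative controls, both scalings, merging, the block and the 3 covariates. There it lay between -0.05 (centring) and 0.03. The median reading of the members per array had an SD within groups of 0.141, which is not a spread of that difference. The median difference was not recomputed with trend and robust eBayes, array weights or Welch's test. The replicate numbers did not pair the arrays: deviations of same-numbered arrays correlated at -0.16, 0.21, -0.24 and 0.13, and 0 of 8 arrays correlated best with their own number. With the replicate block 7 members had an unadjusted p under 0.05 (7.81% of all tested) and 0 passed after adjustment.

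Signs turned for members whose difference lay near 0. With centring on the array median Snord13 stood at -0.00325 and -0.0626 by its 2 probe sets, Snord14e at -0.0518 and Snord90 at -0.0538. Adjusted for the array median, Snord13 stood at -0.305 and -0.318, Snord35a at 0.0627 and Snord90 at -0.0442. With the signal contrast between positive and negative controls as a covariate it stood at -0.0978 and -0.201, and with adipocyte markers at -0.152 and -0.193, with Snord35a at 0.000561. With array weights Snord98 stood at 0.0434. With single arrays left out Snord13 ranged from -0.217 to 0.496 and from -0.260 to 0.371, Snord14e from -0.406 to 0.538, Snord35a from -0.154 to 0.143, Snord42a from -0.0502 to 0.226, Snord61 from -0.178 to 0.0322, Snord90 from -0.0503 to 0.103 and Snord98 from -0.144 to 0.111. The cause was not tested. Of the members listed here, Snord35a alone lay below the median of the negative controls on every array, and the others lay above it on all. Signal over background limits the 19 members of the family that lay below it on every array.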

Other observations

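Some members varied in ways that cut across the groups. Snord93 read 9.46, 8.01, 7.61 and 7.52 in control and 9.70, 8.23, 9.04 and 7.98 in EKO arrays, with array 1 the highest of each group. Snord123, which lies inside the noncoding gene Snhg18, read 9.83, 9.29, 9.48 and 8.81 in control and 10.23, 9.69, 10.05 and 8.48 in EKO arrays, with array 4 the lowest of each group. Both were named after their values were seen. Control array 2 was the highest of the 8 for 14 of the 47 members, and EKO array 1 for 8.

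Among microRNA probe sets, 49 of 356 tested were higher and 8 lower in EKO aortas at an unadjusted limma p under 0.05, beside 5.43% and 3.53% of all tested probe sets, and 0 passed after adjustment.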
